A study of Mus musculus with 36 samples.

Results

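The genes described here are 38 genes of the cell cycle, measured by RNA-seq in the whole hearts of mice. They were taken by name from the deposited table, which lists 25626 genes, and each of the 38 names matched 1 row. By their textbook roles 11 act in DNA replication and 27 in mitosis. A gene was tested when its value reached 10 in at least 6 libraries, which held for 16275 genes and for all 38 of these. The rule goes by name and uses no measured value, but the genes were chosen with earlier results of these data known.

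The study has 36 libraries in 6 groups of 6. Control mice and mice labelled cSirt4-Tg, named after the mitochondrial sirtuin Sirt4, had either sham surgery or transverse aortic constriction (TAC), an operation that narrows the aorta and raises the pressure load on the left ventricle. The sham mice were given vehicle, and the TAC mice vehicle or MitoQ, an antioxidant that is carried into mitochondria. The groups are called Con-Sham, Tg-Sham, Con-TAC and Tg-TAC (all 4 with vehicle), and Con-TAC-MQ and Tg-TAC-MQ (both with MitoQ). The stated aim concerns how SIRT4 drives reactive oxygen species and fibrosis in the failing heart. The promoter of the transgene, the strain, the age, the time after TAC and the MitoQ dose were not stated in the labels. The sources used here do not say outright that the 6 libraries of a group are 6 mice, so p-values measure the spread between these libraries, which may in part be technical.

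Values are normalized read counts, that is reads divided by a size factor for each library. The libraries held 14.8 to 60.0 M reads with a median of 28.4 M. Sirt4, the gene that the genotype label names, had a median of 375 in Con-Sham and 386 in Tg-Sham, of 358 in Con-TAC and 343 in Tg-TAC, and of 350 in Con-TAC-MQ and 355 in Tg-TAC-MQ. The libraries labelled cSirt4-Tg were therefore not higher in Sirt4 beyond the spread (limma adjusted p = 0.739, 0.671 and 1.00 for sham, vehicle TAC and MitoQ TAC), and the genotypes below are those of the labels. All 10 cardiomyocyte markers were detected, with summed values of 930579 to 2349960 per library, so the label of heart tissue holds. The median log2 difference of all tested genes lay between -0.02 and 0.01 in every comparison.

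Cells that divide copy their DNA in S phase and then separate the copies in mitosis. Genes for S phase are switched on by E2F factors when the retinoblastoma proteins release them, while many mitotic genes are held down by the DREAM complex in resting cells and switched on later by B-MYB and FOXM1 acting with the MuvB core. The adult mouse heart has very few dividing cardiomyocytes, and most dividing cells in a loaded heart are fibroblasts, endothelial cells and immune cells.

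Promoter sequences are shown because the replication and mitotic genes differ in the letters that these factors are known to use. The windows run from 250 bases before to 50 bases after the gene start and come from RefSeq on GRCm38.p6, a different build from the mm39 of the expression table. Capitals mark the CCAAT box (CCAAT), the cell cycle genes homology region or CHR (TTTGAA or TTCGAA), and the E2F core (GCGNNAA), each searched on both strands. All 6 windows are on the minus strand and are printed 5′ to 3′. The first 4 belong to mitotic genes and the last 2 to replication genes.
Cdc20, chr4:118437294-118437593: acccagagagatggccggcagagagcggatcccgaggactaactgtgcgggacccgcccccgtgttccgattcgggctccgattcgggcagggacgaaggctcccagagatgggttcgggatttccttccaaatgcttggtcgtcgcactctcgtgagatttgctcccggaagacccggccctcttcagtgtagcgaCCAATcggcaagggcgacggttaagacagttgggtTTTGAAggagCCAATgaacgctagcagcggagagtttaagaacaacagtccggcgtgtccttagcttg
Ccnb1, chr13:100786437-100786736: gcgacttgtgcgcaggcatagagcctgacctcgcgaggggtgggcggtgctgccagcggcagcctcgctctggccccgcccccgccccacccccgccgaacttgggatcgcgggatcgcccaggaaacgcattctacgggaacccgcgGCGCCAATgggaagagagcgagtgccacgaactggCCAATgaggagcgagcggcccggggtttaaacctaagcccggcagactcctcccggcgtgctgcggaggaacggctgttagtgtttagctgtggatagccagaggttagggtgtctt
Cdk1, chr10:69352863-69353162: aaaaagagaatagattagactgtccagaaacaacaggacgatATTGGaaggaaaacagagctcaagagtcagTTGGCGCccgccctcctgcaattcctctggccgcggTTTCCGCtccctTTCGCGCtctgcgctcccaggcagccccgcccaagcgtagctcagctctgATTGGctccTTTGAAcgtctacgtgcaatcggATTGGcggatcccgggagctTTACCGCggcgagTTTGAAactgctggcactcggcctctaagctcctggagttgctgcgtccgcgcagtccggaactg
Cenpf, chr1:189688037-189688336: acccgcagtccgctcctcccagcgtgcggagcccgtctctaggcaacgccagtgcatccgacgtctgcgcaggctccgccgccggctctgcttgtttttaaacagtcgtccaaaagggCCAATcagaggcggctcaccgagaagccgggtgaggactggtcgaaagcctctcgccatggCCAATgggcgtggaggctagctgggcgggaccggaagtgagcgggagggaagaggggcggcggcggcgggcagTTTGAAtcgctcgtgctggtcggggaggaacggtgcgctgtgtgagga
Mcm6, chr1:128359656-128359955: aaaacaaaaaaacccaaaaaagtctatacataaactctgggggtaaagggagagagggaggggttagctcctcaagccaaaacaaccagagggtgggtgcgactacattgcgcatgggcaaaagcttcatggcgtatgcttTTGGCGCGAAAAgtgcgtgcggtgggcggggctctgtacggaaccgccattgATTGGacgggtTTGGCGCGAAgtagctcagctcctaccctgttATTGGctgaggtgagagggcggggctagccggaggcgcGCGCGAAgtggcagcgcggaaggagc
Mcm3, chr1:20820263-20820562: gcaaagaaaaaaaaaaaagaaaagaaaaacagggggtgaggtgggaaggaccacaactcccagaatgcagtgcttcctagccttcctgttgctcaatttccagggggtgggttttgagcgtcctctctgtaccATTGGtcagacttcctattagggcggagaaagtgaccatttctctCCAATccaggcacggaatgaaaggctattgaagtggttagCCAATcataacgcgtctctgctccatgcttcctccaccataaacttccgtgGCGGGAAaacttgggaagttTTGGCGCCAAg

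Of the 27 mitotic genes 22 had a promoter entry, and 18 of them (81.8%) held a CHR, against 3 of 10 replication genes (30%) and 21.7% of all 27025 promoters. The E2F core stood in 10 of the 22 mitotic promoters (45.5%) and in 7 of the 10 replication promoters (70.0%), against 22.6% of all. The CCAAT box was frequent in both lists, at 86.4% and 80.0%, against 41.1% of all. A CCAAT box together with a CHR was found in 77.3% of the mitotic promoters, 30% of the replication promoters and 8.61% of all. In the windows shown, Cdc20 has its CHR 18 bases before the start and Cdk1 has them 71 and 15 bases before it, whereas Mcm6 and Mcm3 hold only CCAAT boxes and E2F cores. Ccnb1 has no CHR in this window, and Cenpf has CCAAT boxes and a CHR. The same motifs also differed between 50 other mitotic genes (CHR in 64.0%, E2F core in 50%) and 26 other replication genes (19.2% and 84.6%). Ccna2, Kif20a and Foxm1 are among the members without an entry. These matches are letters in a window and not measured binding.

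By group medians, the mitotic genes were highest in the vehicle TAC hearts labelled cSirt4-Tg. To place each library, the log2(value + 1) of every gene was set against its mean over the 36 libraries and averaged over the 27 mitotic genes. That average was 0.90 at the median of Tg-TAC, against -0.43 in Con-TAC, -0.52 in Con-Sham, -0.14 in Tg-Sham, -0.45 in Con-TAC-MQ and 0.20 in Tg-TAC-MQ. Over the 11 replication genes the same medians were 0.47, -0.16, -0.22, -0.03, -0.19 and 0.04, the same highest group with smaller distances. The group with the highest median was Tg-TAC for 26 of the 27 mitotic and 9 of the 11 replication genes. By group means the order was another: Con-TAC-MQ was highest for 24 of the 27 mitotic genes and Tg-TAC for 2, and for the replication genes Tg-TAC was highest for 7 and Con-TAC-MQ for 3. The highest group median was 3.18 times the lowest for the middle mitotic gene (range 1.77 to 7.58) and 1.62 times for the middle replication gene (range 1.25 to 3.77). In whole tissue, more dividing cells and more RNA per dividing cell cannot be told apart, and neither can fewer cells and less RNA per cell.

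**Figure D1:**
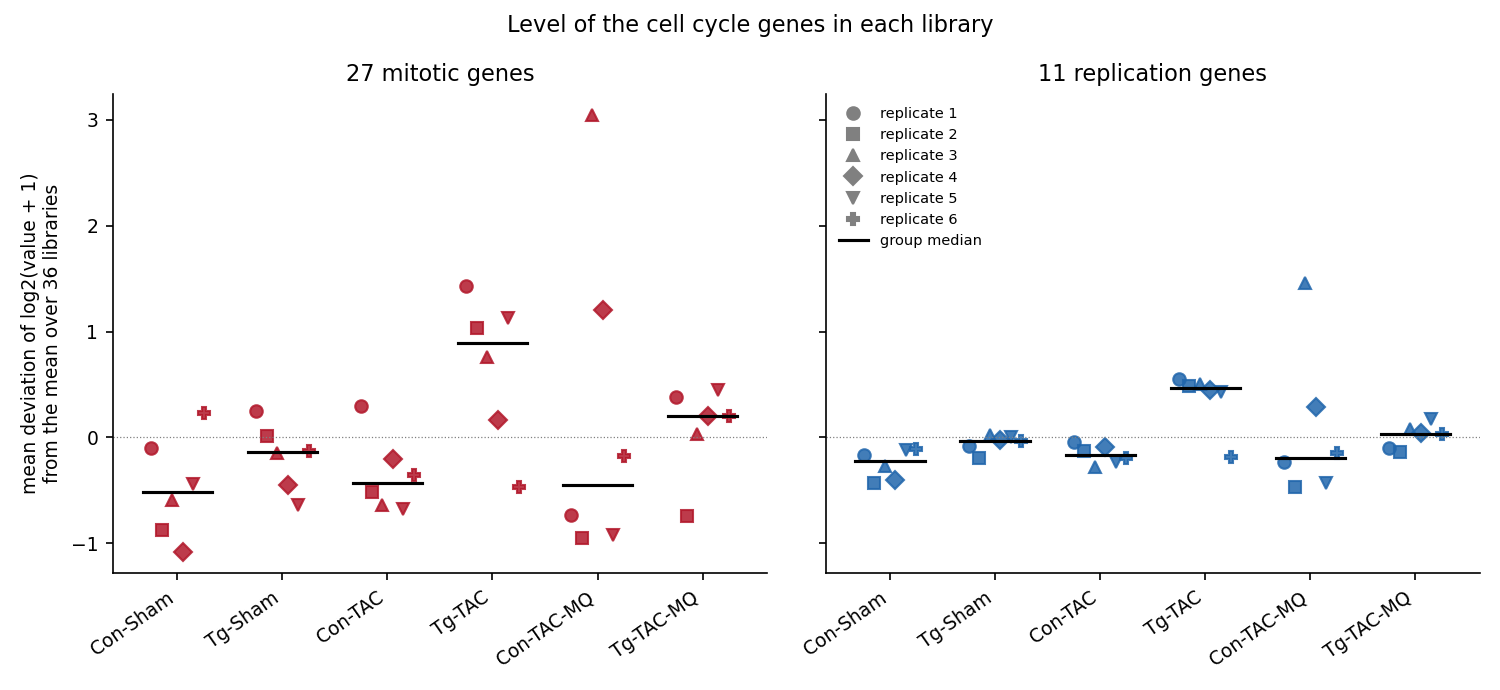
Each point is 1 library, drawn as the mean deviation of log2(value + 1) from the gene's mean over the 36 libraries, for the 27 mitotic genes (left) and the 11 replication genes (right); symbols mark the replicate and bars the group medians. In Tg-TAC 5 libraries lie above 0 and replicate 6 lies at -0.46 (mitotic), while Con-TAC-MQ replicate 3 stands at 3.04 (mitotic) and 1.45 (replication).

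A few libraries stood apart from their groups in these genes. Con-TAC-MQ 3 was the highest of all 36 libraries, with an average of 3.04 over the mitotic and 1.45 over the replication genes. Against the 4 libraries Con-TAC-MQ 1, 2, 5 and 6 it was above all of them in 26 of 27 mitotic genes (median log2 difference 3.88) and in all 11 replication genes (1.77), while 32.2% of all tested genes were above all 4 (median -0.01). Con-TAC-MQ 4 was above the same 4 libraries in 26 of 27 mitotic genes (median 1.97) and 8 of 11 replication genes (0.46), against 22.1% of all genes. Tg-TAC 6 went the other way: compared with the other 5 Tg-TAC libraries it was below all of them in 22 mitotic genes (median -1.34) and 7 replication genes (-0.56), against 28.8% of all genes. These libraries were picked out after their values were seen, so the counts are descriptions.

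The same libraries stood apart in markers of other cells. Con-TAC-MQ 3 had summed fibroblast markers of 123225, against 26904 to 50927 in the other 5 libraries of its group, summed macrophage markers of 11388 against 3332 to 6117, and summed cardiomyocyte markers of 1126640 against 1720520 to 2134150. Tg-TAC 6 had fibroblast markers of 38292 against 74374 to 146299, macrophage markers of 4737 against 8091 to 12449, and cardiomyocyte markers of 2240510 against 930579 to 1602930 in the rest of Tg-TAC. Con-TAC-MQ 4 had 50927, 6117 and 1720520. Markers and mitotic genes did not go together in every library. Con-TAC 6 had its group's lowest cardiomyocyte sum (1066950) and highest fibroblast and macrophage sums (77741 and 6344). Its mitotic average was -0.35, against a group median of -0.43. Tg-TAC 4 had its group's lowest cardiomyocyte sum (930579) and highest macrophage sum (12449). Its mitotic average was 0.16, against a group median of 0.90. Tg-TAC 6 also carries 29 as the number in its library name, where the other Tg-TAC libraries carry 7 to 12; the labels do not say what that number means. The part of these differences in the results below was not tested. The counts of genes that rose or fell are given with and without Con-TAC-MQ 3 and Tg-TAC 6 where those libraries changed them. Such fits, and those without Con-TAC-MQ 4, leave out libraries picked by these same genes, so their counts and p-values are descriptions.

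**Figure D2:**
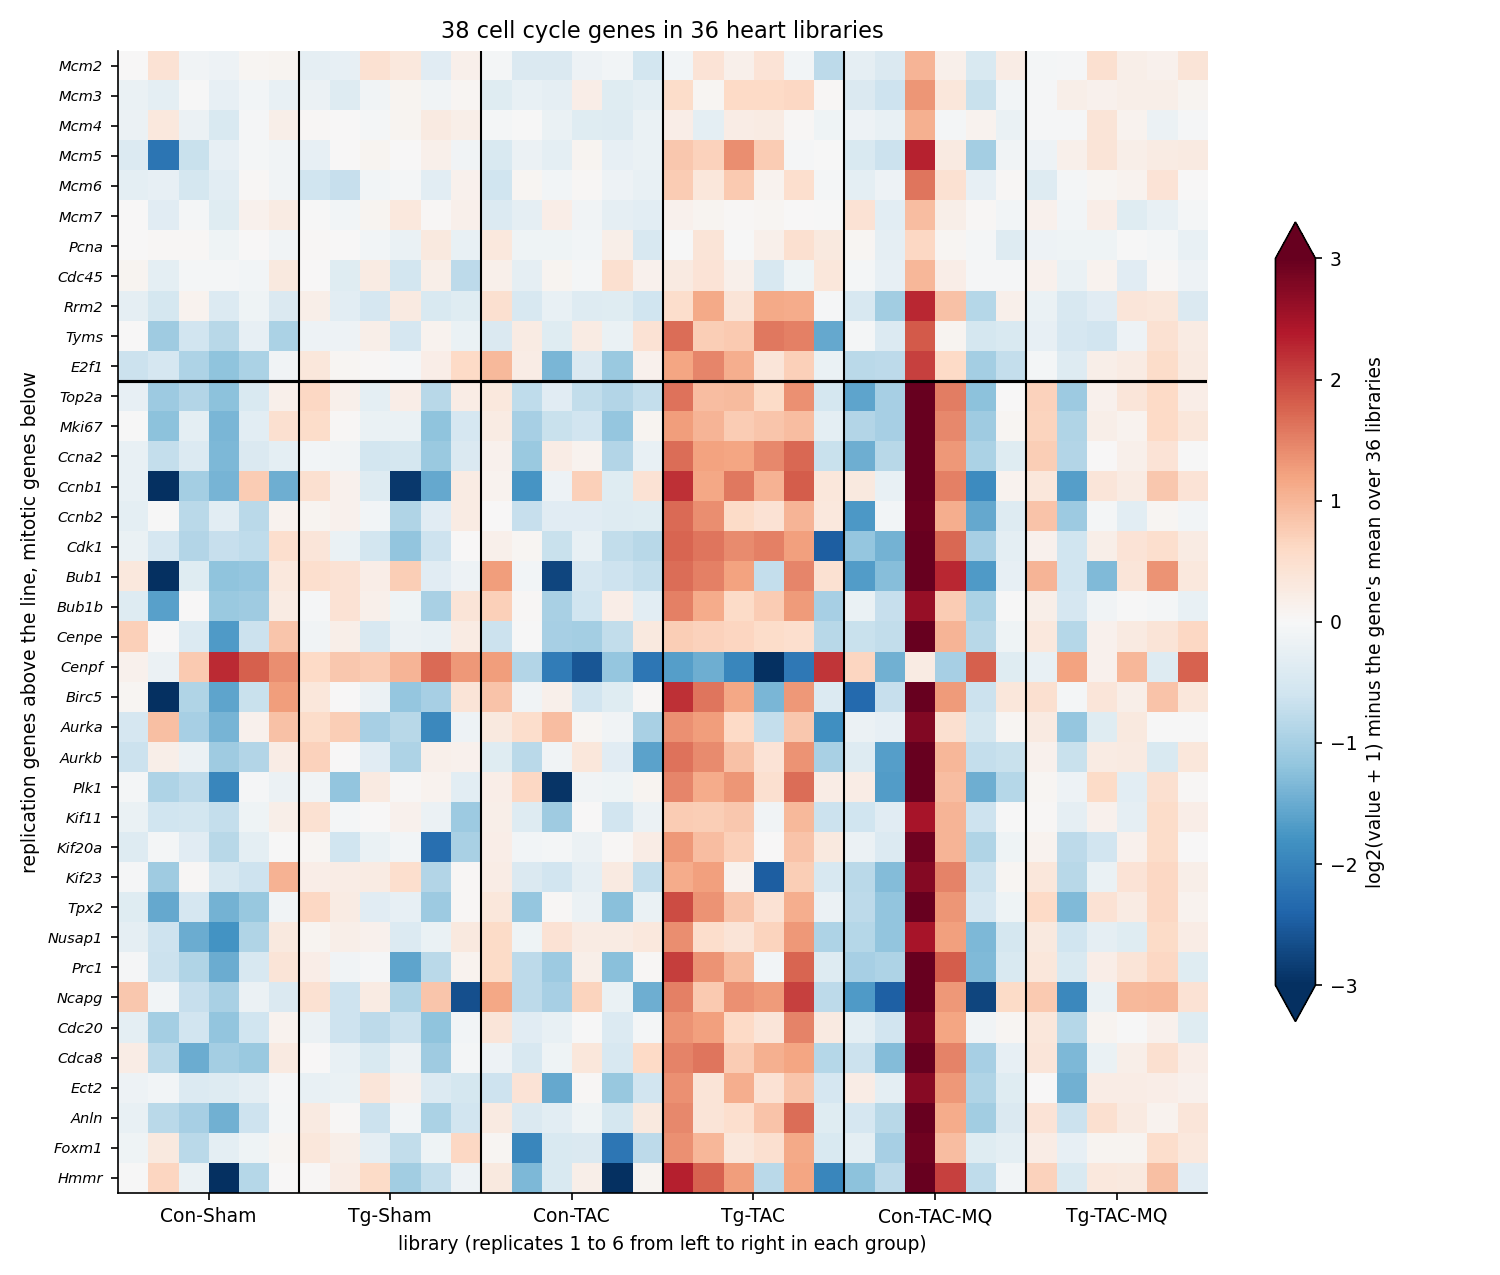
Each column is 1 of 36 libraries and each row 1 of 38 genes, coloured by log2(value + 1) minus the gene's mean over all libraries (red higher, blue lower, scale from -3 to 3). Tg-TAC replicates 1 to 5 are red over most mitotic rows, Con-TAC-MQ replicates 3 and 4 are red over 26 of 27 mitotic rows compared with the rest of their group, and the Cenpf row runs against the others.

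The first comparison asks how the genotypes differ under the same load, Tg-TAC against Con-TAC. All but 1 of the 38 genes were higher in Tg-TAC, as were 50.1% of all tested genes, with a median log2 difference of 1.22 for the mitotic and 0.57 for the replication genes. Only Foxm1 passed the test over all genes (limma adjusted p = 0.0292), so 1 of 38 rose and none fell, where 3.19% of all tested genes rose and 3.29% fell. At an unadjusted p below 0.05 there were 21 genes, 14 mitotic and 7 replication, all higher, where 13.2% of all genes were higher at that level. Foxm1, the transcription factor that drives mitotic genes, ran from 31.2 through 74.2 (median) to 114 in Tg-TAC and from 8.77 through 27.9 to 45.2 in Con-TAC (log2 1.61, SE 0.43, higher in 6 of 6 libraries). The groups overlapped only through Tg-TAC 6, the lowest library of Tg-TAC.

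The mitotic entry genes showed the same arrangement. Cdk1, the kinase that starts mitosis, was 72.0 to 104 in 5 Tg-TAC libraries and 4.62 in Tg-TAC 6, with 16.6 to 33.7 in Con-TAC (log2 1.22, SE 0.60, adjusted p = 0.187). Ccnb2, a B-type cyclin that activates CDK1, ran from 35.8 through 51.5 to 96.4 in Tg-TAC and from 17.4 through 22.3 to 28.9 in Con-TAC, 2 groups that did not overlap (log2 1.26, SE 0.46, adjusted p = 0.0808). It was 1 of 38 members without overlap, where 0.559% of all genes were higher without overlap. Mki67, the gene of the proliferation marker Ki-67, was 315 to 448 in 5 Tg-TAC libraries and 153 in Tg-TAC 6, with 82.2 to 221 in Con-TAC (log2 1.26, SE 0.49, adjusted p = 0.102). In Mki67 as in Cdk1, all 5 of those libraries lay above every Con-TAC library and only Tg-TAC 6 lay among or below them. Top2a, the topoisomerase that untangles sister chromatids, was 189 to 392 and 86.7 in Tg-TAC 6, with 68.0 to 157 in Con-TAC (log2 1.34, SE 0.52, adjusted p = 0.0995).

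Genes that act later in mitosis differed by similar amounts without passing the test. Plk1, a kinase of spindle assembly and mitotic exit, ran from 25.4 through 51.7 to 72.0 in Tg-TAC and from 1.95 through 21.5 to 33.7 in Con-TAC (log2 1.43, SE 0.57, adjusted p = 0.106). Prc1, which bundles the microtubules of the central spindle, ran from 45.1 through 132 to 252 against 24.1 through 46.9 to 88.5 (log2 1.33, SE 0.56, adjusted p = 0.126). Ect2, the exchange factor that starts cytokinesis, ran from 20.8 through 48.0 to 79.7 against 9.76 through 19.5 to 40.7 (log2 1.17, SE 0.42, adjusted p = 0.0748). For each of these 3 genes the ranges overlapped. The smallest mitotic differences were in Aurka, a kinase of the spindle poles (log2 0.12), Nusap1, a microtubule-binding protein (0.28), and Kif23, a kinesin of the midbody (0.29), besides Cenpf, described below.

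None of the replication genes passed by limma in this comparison, and E2f1, Rrm2, Mcm5 and Tyms had the largest differences. DESeq2 called Mcm3, Tyms and Rrm2 higher, besides the mitotic genes Foxm1, Cdk1, Ccna2 and Ccnb2, where 6.13% of all genes were. By edgeR no replication gene was called, where 3.64% of all genes were higher. E2f1, which switches on S-phase genes, ran from 30.1 through 65.8 to 96.5 in Tg-TAC and from 12.7 through 31.8 to 68.3 in Con-TAC (log2 1.03, SE 0.39, adjusted p = 0.0906). Rrm2, the regulated subunit of ribonucleotide reductase, ran from 68.2 through 127 to 156 against 45.9 through 53.6 to 98.1 (log2 0.97, SE 0.34, adjusted p = 0.0693). Tyms, thymidylate synthase, was 98.6 to 192 in 5 Tg-TAC libraries and 19.7 in Tg-TAC 6, with 43.3 to 79.9 in Con-TAC (log2 0.80, SE 0.38, adjusted p = 0.171). Again the 5 libraries were above all of Con-TAC and the remaining one was below it.

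The MCM genes encode the helicase that unwinds DNA at the replication fork, and none of its subunits passed by limma. Mcm3 had the smallest adjusted p of its subunits here (220 through 320 to 329 against 166 through 176 to 246, log2 0.63, SE 0.20, adjusted p = 0.0505). Mcm5 and Mcm6 had log2 differences of 0.82 and 0.57, and Mcm2, Mcm4 and Mcm7 of 0.29, 0.25 and 0.24. Pcna, the sliding clamp, was at 0.27 and Cdc45, the partner of the helicase, at 0.01. Mcm7 overlaps Cops6 and Ap4m1 on the opposite strand and Pcna has a listed pseudogene copy. Cdc45 overlaps Ufd1 on the opposite strand, with a median value of 1176 over all libraries against 69.7 for Cdc45. The labels do not say whether the counting used strand.

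Leaving out either of the libraries that stood apart changed how many of these genes passed. Without Con-TAC-MQ 3, which is not in the comparison but adds to the spread that all groups share in the model, 16 of 38 rose, 11 mitotic and 5 replication, where 5.87% of all genes rose. Without Tg-TAC 6, 18 rose, 13 and 5, where 11% rose. Without both, 26 rose, 19 of 27 mitotic and 7 of 11 replication, and none fell, where 12.9% of all genes rose. In that last fit Ccna2 was at log2 1.74, Cdk1 at 1.88, Mki67 at 1.47, Tyms at 1.27 and Mcm3 at 0.70 (limma adjusted p = 0.000324, 0.000416, 0.00481, 0.000153 and 0.000412). Tg-TAC 6 and Con-TAC-MQ 3 were picked after values of these same genes were seen, so these counts and p-values are descriptions. The call of Foxm1 was in turn lost without Con-TAC 2, 3 or 5 or Tg-TAC 1, 4 or 5 (adjusted p = 0.0509 to 0.0805), and in a fit of only these 2 groups (0.195).

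**Figure D3:**
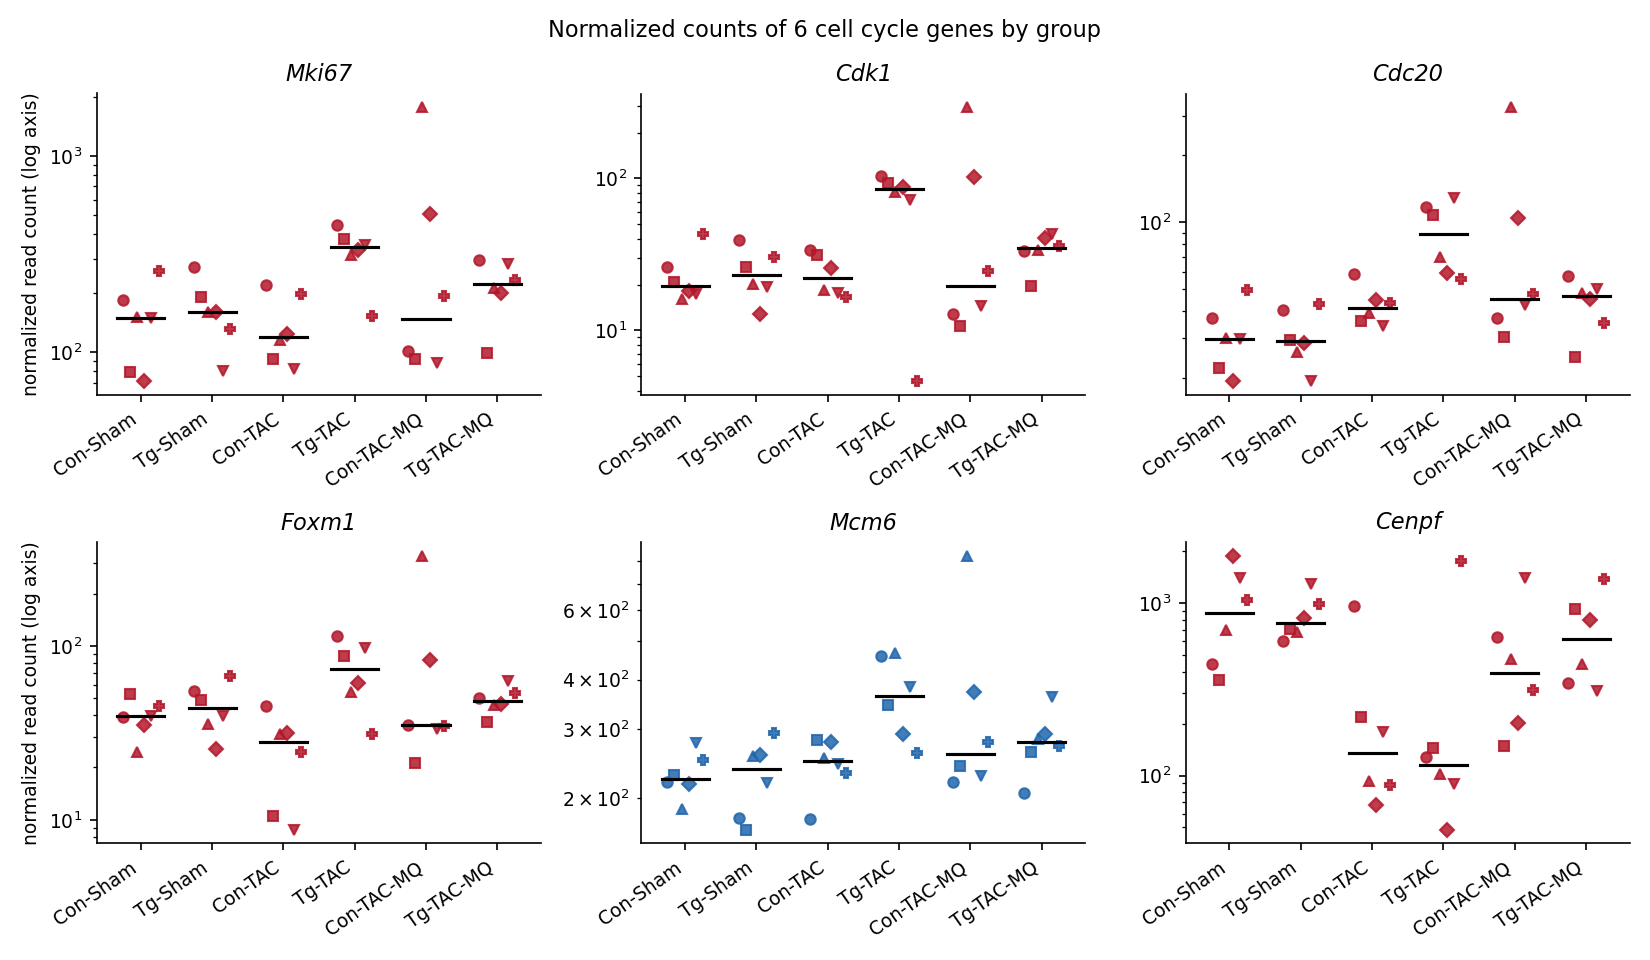
Normalized read counts (log axis) of 6 genes in every library, by group; symbols mark replicates 1 to 6 (circle, square, upward triangle, diamond, downward triangle, plus) and bars the group medians. Tg-TAC is the highest group by median in Mki67, Cdk1, Cdc20, Foxm1 and Mcm6 with replicate 6 lowest in it, and Cenpf is low in Con-TAC and Tg-TAC apart from 1 library in each.

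The effect of TAC itself was examined within each genotype. In the cSirt4-Tg hearts 5 of 38 genes rose and 1 fell (limma, adjusted p below 0.05), where 7.91% of all genes rose and 8.77% fell. The median log2 difference was 1.01 for the mitotic genes, of which 25 of 27 were higher, and 0.51 for the replication genes, of which 8 of 11 were higher, while 48.7% of all genes were higher. Cdc20, which activates the ligase that starts anaphase, rose from 19.3 through 29.1 to 42.8 in Tg-Sham to 55.5 through 89.0 to 129 in Tg-TAC (log2 1.47, SE 0.37, adjusted p = 0.00722). Every Tg-TAC library was above every Tg-Sham library, and the call held in all 36 fits that left out 1 library. For 2 of 38 members these groups lay apart in this way, where 1.22% of all genes were higher without overlap and 0.989% lower. Cdc20 overlaps Elovl1, an enzyme of fatty acid elongation, on the opposite strand; Elovl1 itself rose (log2 0.54, adjusted p = 0.0218) from a median value of 484 over all libraries against 42.7 for Cdc20, and without the use of strand their reads cannot be told apart.

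The other genes that rose by limma were Ccnb1, Ccna2, Kif20a and Mcm6. Ccnb1, the cyclin of mitotic entry, ran from 1.06 through 13.3 to 20.3 in Tg-Sham and from 18.5 through 39.3 to 69.5 in Tg-TAC (log2 2.02, SE 0.70, adjusted p = 0.0440). Ccna2, the cyclin of S phase and G2, ran from 28.9 through 45.0 to 59.6 and from 39.3 through 161 to 211 (log2 1.56, SE 0.51, adjusted p = 0.0315). In both genes the groups overlapped only through Tg-TAC 6. Kif20a, a kinesin of the central spindle, ran from 12.8 through 50.1 to 68.6 and from 66.5 through 114 to 162 (log2 1.35, SE 0.41, adjusted p = 0.0211). Mcm6 ran from 167 through 237 to 293 and from 260 through 364 to 466 (log2 0.68, SE 0.21, adjusted p = 0.0280). Ccna2 and Kif20a overlap Exosc9 and Cdc23 on the opposite strand, whose own differences were 0.13 and -0.13 (adjusted p = 0.375 and 0.178).

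The call of Ccnb1 was also lost with edgeR (adjusted p = 0.0668), with a pseudocount of 0.5, with no filter, with the name number class and in a fit of only these 2 groups (limma, 0.0521 to 0.0914). With the name number class Ccna2 and Kif20a were lost too (limma adjusted p = 0.0911 and 0.0578). That fit left Cdc20 and Mcm6 called higher and Cenpf lower. The calls depended on single libraries as well. Leaving out 1 Tg-Sham or Tg-TAC library took the adjusted p of Ccnb1 to as much as 0.137 (lost without Tg-Sham 3, 4 or 5 or Tg-TAC 1, 2, 3, 4 or 5), of Ccna2 to 0.0757 (Tg-Sham 3, 4 or 5, Tg-TAC 1, 2, 4 or 5), of Mcm6 to 0.0703 (Tg-Sham 1 or 2, Tg-TAC 1, 3 or 5) and of Kif20a to 0.0633 (Tg-Sham 5 or Tg-TAC 1). The number called went up without the libraries that stood apart. Without Con-TAC-MQ 3, 12 rose (8 mitotic, 4 replication; 9.28% of all genes rose), and without Tg-TAC 6, 12 rose (again 8 and 4; 13.4%). Without both, 24 rose, 19 of 27 mitotic and 5 of 11 replication, and 1 fell, where 15.1% of all genes rose and 16% fell.

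Control hearts were compared with their own sham group in the same way. By limma none rose and 1 fell, where 2.65% of all genes rose and 2.65% fell, and the median log2 differences were 0.13 (mitotic) and 0.02 (replication). Cdk1 ran from 16.0 through 19.5 to 43.1 in Con-Sham and from 16.6 through 22.0 to 33.7 in Con-TAC, and Mki67 from 71.3 through 150 to 260 and from 82.2 through 120 to 221, so the groups lay over each other. At an unadjusted p below 0.05, 1 member was higher and 1 lower, where 11.5% and 11% of all genes were, and edgeR and DESeq2 called none, where they called 5.68% and 8.84% of all genes. With library totals made equal over all but mitochondrially encoded genes, the median of all genes in this comparison moved from 0.01 to 0.11 and the share of calls that were higher from 49.9% to 83.6%, while the number of members called did not change. The largest positive difference was in Nusap1 (log2 1.08, SE 0.45, adjusted p = 0.147), whose values were 9.67 through 20.9 to 44.0 and 32.5 through 43.9 to 53.9. Nusap1 overlaps Oip5 on the opposite strand, whose own log2 difference was 0.94 (limma adjusted p = 0.281). Without both Con-TAC-MQ 3 and Tg-TAC 6, Nusap1 was the 1 gene that rose (adjusted p = 0.032), where 5.89% of all genes rose.

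The difference between the genotypes in the response to TAC was tested directly as an interaction. Its median was 0.93 for the mitotic and 0.26 for the replication genes and 35 of 38 were positive, as were 47.1% of all genes, but none passed by limma, and 0% of all genes did. The smallest adjusted p was 0.775, in Foxm1 (log2 1.44, SE 0.61), and 1 gene, the same one, had an unadjusted p below 0.05, where 2.54% of all genes did with a positive sign. By edgeR and DESeq2 none passed either, where 0% and 0.0123% of all genes did. A stronger response of these genes in cSirt4-Tg hearts is therefore not shown by the test of the difference. Without TAC, in Tg-Sham against Con-Sham, none rose or fell, where 0.873% of all genes changed. There, 1 gene was below an unadjusted p of 0.05, where 8.69% of all genes were higher at that level. This was E2f1, which ran from 34.0 through 37.9 to 52.6 in Tg-Sham and from 14.5 through 19.9 to 32.1 in Con-Sham (log2 0.92, SE 0.39, adjusted p = 0.294) without overlap. It was 1 of 38 members without overlap there, where 2.75% of all genes were higher without overlap. By edgeR and DESeq2 no member was called, where 0.602% and 1.97% of all genes were.

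**Figure D4:**
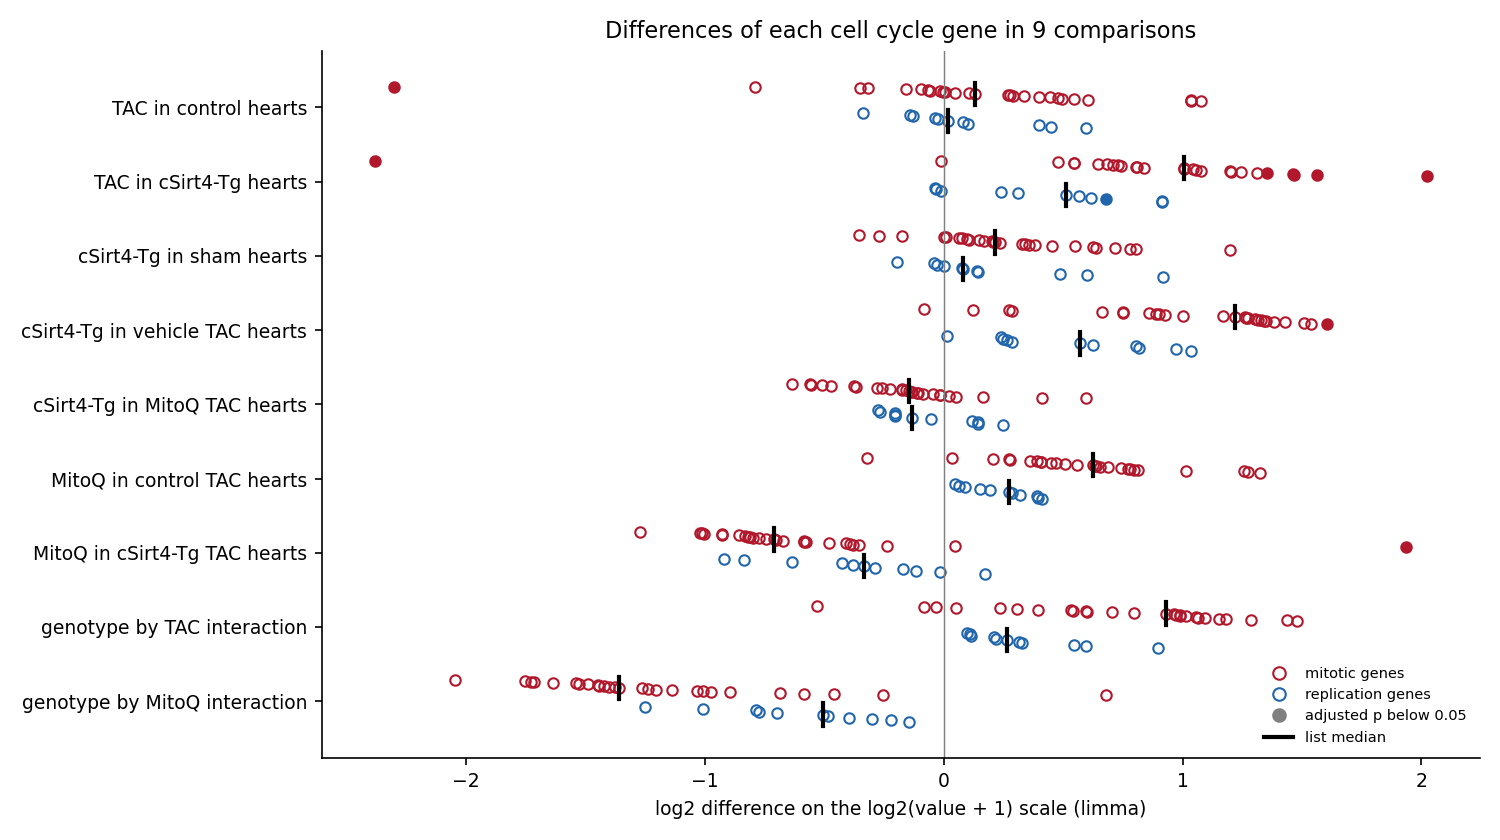
Log2 differences (limma, log2(value + 1) scale) of the 27 mitotic genes (red) and 11 replication genes (blue) in the 7 comparisons of 2 groups and the 2 interactions; filled points have an adjusted p below 0.05 and black bars are list medians. The mitotic median is 1.22 for the genotypes in vehicle TAC and -0.71 for MitoQ in cSirt4-Tg hearts, and 0.57 and -0.34 for the replication genes.

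Cenpf, which encodes a large kinetochore and nuclear matrix protein and is usually grouped with the other mitotic genes, ran against them. It was highest in sham hearts, from 358 through 874 to 1886 in Con-Sham and from 606 through 764 to 1299 in Tg-Sham. After TAC, Con-TAC 1 had 959 and the remaining 5 libraries of Con-TAC 67.3 to 217. Tg-TAC 6 had 1767 and the remaining 5 libraries of Tg-TAC 48.5 to 145. It fell with TAC in control hearts by 2.30 on the log2 scale (SE 0.66, limma adjusted p = 0.0373, 5 of 6 libraries) and in cSirt4-Tg hearts by 2.38 (SE 0.66, adjusted p = 0.0138, 5 of 6 libraries). The libraries that broke this order, Con-TAC 1 and Tg-TAC 6, lay within the range of the sham libraries. In Tg-TAC 6 Cenpf was the only mitotic gene above all other libraries of the group, while 22 others were below them all.

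With MitoQ, Cenpf spread widely, from 148 through 394 to 1400 in Con-TAC-MQ and from 309 through 622 to 1373 in Tg-TAC-MQ. In cSirt4-Tg hearts it rose with MitoQ (log2 1.93, SE 0.66, adjusted p = 0.0389), the only member called in that comparison. On the recovered reads edgeR and DESeq2 did not call Cenpf: log2 -1.86 for both in control TAC hearts (adjusted p = 0.130 and 0.0679), -1.18 and -1.16 in cSirt4-Tg TAC hearts (0.272 and 0.232), and 0.90 and 0.88 for MitoQ (0.409 and 0.380). In the control hearts limma too lost the call in 8 of 36 fits without 1 library, those without Con-Sham 3, 4, 5 or 6 or Con-TAC 3, 4, 5 or 6 (adjusted p = 0.0528 to 0.121). For MitoQ it was lost without Tg-TAC 1, 2, 3, 4 or 5 or Tg-TAC-MQ 2, 4 or 6 (0.0622 to 0.112). Sgo2a, a gene of mitotic chromosome cohesion, also fell with TAC in cSirt4-Tg hearts (log2 -0.99, limma adjusted p = 0.00234) and rose there with MitoQ (0.89, adjusted p = 0.00333), and both comparisons use Tg-TAC. Its difference with TAC in control hearts did not pass (-0.54, adjusted p = 0.104). Sgo2a was lower in Tg-TAC than in Con-TAC (-0.91, adjusted p = 0.0130), where Cenpf had a log2 difference of -0.08 (adjusted p = 0.955).

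MitoQ was compared with vehicle among the TAC hearts. In cSirt4-Tg hearts 35 of 38 genes were lower with MitoQ, as were 50% of all genes, with a median log2 difference of -0.71 for the mitotic and -0.34 for the replication genes. No member fell and Cenpf rose, where 7.44% of all genes fell and 9.89% rose. Of the calls over all genes 57.1% were higher, and 85.2% with library totals made equal over all but mitochondrially encoded genes. At an unadjusted p below 0.05 there were 5 lower genes, where 14.4% of all genes were lower at that level. edgeR called 1 lower (Tyms) and DESeq2 3 (Tyms, Pcna and Cdc20), where 8.77% and 11.2% of all genes were. Cdc20 ran from 24.7 through 46.7 to 57.5 in Tg-TAC-MQ and from 55.5 through 89.0 to 129 in Tg-TAC (log2 -1.0, SE 0.37, adjusted p = 0.0536), and the highest MitoQ library lay just above the lowest vehicle library. Pcna ran from 563 through 603 to 654 and from 656 through 770 to 919, without overlap (log2 -0.34, SE 0.12, adjusted p = 0.0551). It was 1 of 38 members without overlap, where 2.91% of all genes were lower without overlap. Rrm2, Tyms and Ccnb2 had log2 differences of -0.84, -0.92 and -1.01 (adjusted p = 0.0829, 0.0873 and 0.125). This comparison has Tg-TAC in common with the ones above, so the reversed sign of the medians is not separate evidence.

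Without Con-TAC-MQ 3, 6 members fell with MitoQ in cSirt4-Tg hearts (Cdc20, Ccnb2, Ccna2, Rrm2, Pcna and Tyms), where 8.76% of all genes fell. Without Tg-TAC 6, also 6 fell (Cdc20, Bub1b, Ccna2, Cdk1, Tyms and Rrm2), where 12.5% did. Without both, 16 fell, 10 mitotic and 6 replication, where 14.1% did. Cdk1, which was 19.5 to 42.9 with MitoQ and 72.0 to 104 in the 5 remaining vehicle libraries, was called in the last 2 of these fits. All MitoQ libraries carry 20 or 21 as their name number and no Tg-TAC library does, so the treatment and that number cannot be told apart within the genotype. Reads of Rn18s-rs5, a ribosomal RNA gene, made up 0.591% to 1.33% of the Tg-TAC-MQ libraries and 2.38% to 11.8% of the Tg-TAC libraries. In Con-TAC-MQ they made up 0.636% to 1.39%, against 1.55% to 9.22% in Con-TAC. The part of this in the MitoQ differences was not tested.

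In control hearts MitoQ gave no call by limma in either direction, where 1.92% of all genes rose and 1.31% fell (59.5% of calls higher, and 84.5% with the same scaling). All but 1 of the 38 genes had a positive difference, as had 50.9% of all genes, with medians of 0.62 (mitotic) and 0.27 (replication), but this rested on 2 libraries. At an unadjusted p below 0.05 there were 3, all higher, where 10.6% of all genes were. Mki67 was 1773 in Con-TAC-MQ 3 and 507 in Con-TAC-MQ 4 and 88.3 to 194 in the other 4, against 82.2 to 221 in Con-TAC. Foxm1 was 331 and 82.7 in those libraries and 21.3 to 35.3 in the other 4, against 8.77 to 45.2 in Con-TAC (log2 1.27, SE 0.43, adjusted p = 0.0943). Without Con-TAC-MQ 3 the medians were 0.01 and -0.06, and without both libraries -0.42 and -0.18, with Nusap1 then lower (adjusted p = 0.0353; 1.9% of all genes fell). On recovered reads edgeR called 1 member (Foxm1) and DESeq2 called 11, all higher, where 1.5% and 2.83% of all genes were. Both fits include Con-TAC-MQ 3.

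Between the genotypes under MitoQ no member was called, where 0.0737% of all genes were, none had an unadjusted p below 0.05, and edgeR and DESeq2 called none, where 0.0676% and 0.166% of all genes were. The medians were -0.15 (mitotic) and -0.13 (replication) with all libraries, and 0.82 and 0.24 without Con-TAC-MQ 3 and Con-TAC-MQ 4, a turn of sign that those 2 libraries decide. Without them Mcm3 was higher in Tg-TAC-MQ (adjusted p = 0.038), where 0.43% of all genes were. The interaction of genotype with MitoQ had medians of -1.36 and -0.50, with 37 of 38 genes negative, as were 50.2% of all genes. None was called by limma, where 0% of all genes were. At an unadjusted p below 0.05 there were 11, where 3.98% of all genes were negative at that level, and the smallest adjusted p was 0.533 (Cdc20, log2 -1.64, SE 0.52); without Con-TAC-MQ 3 and Con-TAC-MQ 4 the medians were -0.29 and -0.10. By edgeR no member was called and by DESeq2 Cdc20 was, where 0% and 0.0983% of all genes were.

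The replication and mitotic genes are set side by side as lists, without a test of their difference. In the 2 comparisons between groups where both lists were shifted most, the median log2 difference was 1.22 against 0.57 (genotypes in vehicle TAC) and 1.01 against 0.51 (TAC in cSirt4-Tg hearts), mitotic against replication. With MitoQ in cSirt4-Tg hearts it was -0.71 against -0.34. The spread between libraries followed the same order: the averaged level had an SD over the 36 libraries of 0.78 for the mitotic and 0.33 for the replication genes. The SE of a single gene's difference was 0.36 to 0.76 in the mitotic and 0.12 to 0.39 in the replication list, and 4 of 27 and 1 of 11 rose with TAC in cSirt4-Tg hearts, where 7.91% of all genes did.

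Lists of other cell cycle genes are set against the same shares of all genes, 7.91% higher and 8.77% lower for TAC in cSirt4-Tg hearts and 3.19% and 3.29% between the genotypes in vehicle TAC. Of 56 other mitotic genes tested, 5 rose and 1 fell with TAC in cSirt4-Tg hearts (median log2 0.80) and 4 rose and 1 fell between the genotypes in vehicle TAC (0.97); Gtse1, a mitotic spindle protein, rose in both (log2 1.92 and 1.80, limma adjusted p = 0.0107 and 0.0331), as did Pimreg (1.33 and 1.71, adjusted p = 0.0493 and 0.0313). Of 32 other replication genes, none rose and 1 fell, and none changed (medians 0.18 and 0.30). The one that fell was Pold1, the catalytic subunit of DNA polymerase delta (log2 -0.37, adjusted p = 0.0117). Of 9 G1 cyclins and kinases, 1 rose in each: Ccnd3, a D-type cyclin, with TAC (log2 0.30, adjusted p = 0.0339), and Ccne1, the cyclin of S-phase entry, between the genotypes (0.94, adjusted p = 0.0457).

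Inhibitors and regulators of the cycle stand against the same shares of all genes for TAC in cSirt4-Tg hearts and for the genotypes in vehicle TAC. Of 6 CDK inhibitors, Cdkn2d rose and Cdkn1c fell with TAC in cSirt4-Tg hearts (log2 0.51 and -0.78, limma adjusted p = 0.00524 and 0.0209), and between the genotypes in vehicle TAC Cdkn2b rose and Cdkn1c was lower (1.24 and -0.79, adjusted p = 0.0432 and 0.0398). Of 18 regulators of the RB, E2F and MuvB families, Rbl2, which encodes the p130 protein of the DREAM complex, fell with TAC in cSirt4-Tg hearts (log2 -0.47, adjusted p = 0.00189), and no other passed. With MitoQ in cSirt4-Tg hearts, where 9.89% of all genes rose and 7.44% fell, Rbl2 and Rb1 rose (0.42 and 0.23, limma adjusted p = 0.00267 and 0.0409). There Cdkn2d and Cdkn2b fell while Cdkn1c rose (-0.43, -1.13 and 0.72, limma adjusted p = 0.0143, 0.0356 and 0.0322). In control hearts with TAC, Cdkn1b fell (log2 -0.29, limma adjusted p = 0.0491), where 2.65% of all genes fell. With MitoQ in control hearts the condensin subunit Ncapd2 rose (0.43, limma adjusted p = 0.0323), where 1.92% of all genes rose.

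Markers of other cell types also differed between the groups, and their counts stand against the same shares of all genes unless another is given. Of 9 fibroblast markers 5 rose with TAC in cSirt4-Tg hearts and 3 between the genotypes in vehicle TAC, and their sum ran from 38292 through 112413 to 146299 in Tg-TAC and from 30312 through 43100 to 77741 in Con-TAC. Of 9 macrophage markers none rose with TAC in cSirt4-Tg hearts and 5 rose between the genotypes in vehicle TAC, with sums of 4737 through 9385 to 12449 against 4474 through 5302 to 6344. In Tg-Sham against Con-Sham, 5 macrophage markers and 1 fibroblast marker rose, where 0.786% of all genes did. The macrophage sums there were 6499 through 7706 to 9052 against 3902 through 4147 to 4987. The 8 endothelial markers summed to 22612 through 23998 to 28556 in Tg-TAC and 25766 through 28177 to 28968 in Con-TAC, and none of them was called between these groups. Of 10 cardiomyocyte markers 4 fell with TAC in cSirt4-Tg hearts and 1 was lower between the genotypes. Among the smaller lists, 3 of 8 smooth muscle and pericyte markers, 1 of 5 B cell and 1 of 4 neutrophil markers rose with TAC in cSirt4-Tg hearts, 2 of 4 Schwann cell markers fell and none of 5 erythroid markers was called. Between the genotypes in vehicle TAC 2 of the 8 smooth muscle and pericyte markers rose. With TAC in control hearts, where 2.65% of all genes rose, 4 of 5 erythroid, 2 of 4 neutrophil, 2 of 9 fibroblast and 1 of 8 endothelial markers rose. With MitoQ in cSirt4-Tg hearts 9.89% of all genes rose and 7.44% fell. There 3 of 9 fibroblast, 1 of 9 macrophage and 1 of 8 smooth muscle and pericyte markers fell. In the same comparison 2 of 10 cardiomyocyte and 1 of 4 Schwann cell markers rose. The T and NK cell list had 2 of 8 genes at testable levels, of which 1 rose with TAC in cSirt4-Tg hearts. Tg-TAC 4 had a B cell sum of 1866, against 41.6 to 99.1 in the rest of Tg-TAC. Its neutrophil sum was 708 against 56.7 to 104, and its T and NK cell sum 226 against 28.9 to 81.0. No marker of any list was at 0 in all libraries of a group. The part of these cell types in the cell cycle results was not tested.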

How the data were processed

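Heart RNA was extracted with the RNeasy Fibrous Tissue kit and sequencing libraries prepared with NEB Ultra II Directional reagents, per the labels' protocols. Trim Galore, STAR and the mm39 build are named in the submitters' processing notes; their versions, the counter and the normalization tool were not stated there. The authors deposited a signal per gene, a read count scaled for each library. Dividing by 1 step per library gave whole reads, within 0.01 read, for 100% of values in all 36 libraries.

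Groups come from the labels. A gene entered the test with a value of 10 or more in 6 or more libraries (16275 of 25626 genes). The log2(value + 1) was fitted in limma 3.58.1 (R 4.3.3) with 1 mean per group and 30 residual degrees of freedom, using its trend and robust options. Contrasts, 7 between groups and 2 interactions, were two-sided and adjusted by Benjamini-Hochberg over all genes tested, at a threshold of 0.05. This scale understates changes of low genes. A library counts for a direction if its value is beyond the other group's mean in that direction.

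The members, the other gene lists, the markers and the tests were chosen with earlier results of these data known. Every member could be named, and from each other cell cycle list at most 3 called genes per comparison, by smallest adjusted p. Alternatives were pseudocounts of 0.5 and 10, no filter, TMM factors, an equal total outside the mitochondrial genome, a replicate block, the class of the name number, a fit of only the libraries compared, omission of each library or of 4 libraries doubted in an earlier analysis, and edgeR (version 4.0.16) or DESeq2 (version 1.42.0) run on recovered reads. Omitting Con-TAC-MQ 3 together with Tg-TAC 6 or Con-TAC-MQ 4 was chosen after seeing the data. Replicate numbers did not pair the libraries (correlations of deviations from -0.48 to 0.31). No library pair held identical values. The fit was tested on simulated data.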

Additional observations from a re-analysis of the deposited data

Results flagged for a closer look

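Within each group of 6 libraries, the highest or lowest value of a gene was singled out when its gap to the next library, as a share of the group's range on the log2(value + 1) scale, exceeded Dixon's 95% critical value. This held for 27 of 228 gene and group pairs (11.8%), where chance gives about 1 in 20. Most of them fall in Tg-TAC-MQ 2, Tg-TAC 6 and Con-TAC-MQ 3. Genes of these lists move together, so they are not separate events.

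Tg-TAC-MQ 2 was far below its group in 9 mitotic genes: Top2a (58.5), Mki67 (98.8), Ccnb1 (3.90), Cdk1 (19.5), Cenpe (18.2), Tpx2 (20.8), Cdca8 (10.4), Ect2 (10.4) and Anln (46.8). It also had the lowest fibroblast marker sum of its group (56790, group median 64135) and the highest cardiomyocyte sum (1721590, median 1664160), with a macrophage sum inside the group's range (7837). The part of these in the low values was not tested. Tg-TAC 6 was far below its group in 7 genes: Tyms (19.7), Mki67 (153), Ccna2 (39.3), Cdk1 (4.62), Bub1b (20.8), Cenpe (18.5) and Cdca8 (15.0). The same library was far above it in Cenpf (1767). Con-TAC-MQ 3 was far above its group in Mcm4 (587), Cdc45 (141), Tyms (215) and Aurka (194).

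The remaining values were spread over other libraries. Con-Sham 2 was low in Mcm5 (27.5) and Bub1 (0), and Ccnb1 and Birc5 were also at 0 there, where 3 reads would give 3.30. Con-TAC 1 was high in Rrm2 (98.1), Con-TAC 4 high in Mcm3 (246), Con-TAC 3 low in Plk1 (1.95) and Tg-Sham 5 low in Kif23 (28.9).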

How the results depend on the processing

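No called difference of a single member turned its sign under any alternative run, while list medians did for TAC in control hearts, for MitoQ in control hearts and for the genotypes with MitoQ. The number of the 38 members called moved in several comparisons, and the calls over all genes, given in parentheses as a percentage, moved as well; the cause was not tested. For TAC in control hearts (1 called, 5.3%) there were 0 with no filter (2.04%), 0 with the name number class (1.02%), 0 in a fit of only the 2 groups (4.78%), 0 with edgeR (5.68%) and 0 with DESeq2 (8.84%), 2 without Con-TAC-MQ 3 and Tg-TAC 6 (11.2%) and 2 without Con-TAC-MQ 3 and Con-TAC-MQ 4 (6.91%). For TAC in cSirt4-Tg hearts (6 called, 16.7%) there were 3 with the name number class (12.6%), 16 without the 4 libraries doubted earlier (23.7%), 25 without Con-TAC-MQ 3 and Tg-TAC 6 (31%), and 15 without Con-TAC-MQ 3 and Con-TAC-MQ 4 (19%). For the genotypes in sham hearts (0, 0.873%) a fit of only those 2 groups called 1 (5.4%). For the genotypes in vehicle TAC (1, 6.48%) there were 2 with a pseudocount of 10 (6.8%), 2 with the replicate block (4.74%), 6 with the name number class (20.4%), 0 in a fit of only those groups (0.00614%), 7 with DESeq2 (10.6%), 17 without the 4 doubted libraries (14.1%), 26 without Con-TAC-MQ 3 and Tg-TAC 6 (25.6%), and 17 without Con-TAC-MQ 3 and Con-TAC-MQ 4 (11%). For the genotypes with MitoQ (0, 0.0737%), 1 was called without Con-TAC-MQ 3 and Con-TAC-MQ 4 (0.498%). For MitoQ in control hearts (0, 3.23%) there was 1 in that fit (4.84%), 1 with edgeR (2.7%) and 11 with DESeq2 (5.08%). For MitoQ in cSirt4-Tg hearts (1, 17.3%) there were 0 with no filter (9.04%), 0 with the name number class (15.7%), 2 with the replicate block (16.3%), 4 in a fit of only those groups (13.6%), 4 without the doubted libraries (23.1%), 17 and 7 in the 2 added fits (30.1% and 19.4%), and 3 with DESeq2 (21%). For the interaction of genotype with MitoQ (0, 0%) DESeq2 called 1 (0.0983%). Leaving out 1 library in turn gave 0 to 1 (TAC in control hearts), 2 to 13 (TAC in cSirt4-Tg hearts), 0 to 18 (genotypes in vehicle TAC), 0 to 1 (MitoQ in control hearts), 0 to 7 (MitoQ in cSirt4-Tg hearts) and 0 in the other comparisons. The replicate block changed no other count by over 1.5 times, and the 2 scaling alternatives changed no count of members. Low mitotic genes such as Ccnb1 and Bub1 rest on few reads, and differences under their spread were not detectable at this depth.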

Other observations

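Genes outside the cell cycle lists that varied most like the members were sought among 12125 genes with a mean of at least 50, by Pearson's r with the averaged level of a list over 36 libraries after subtracting each group's mean. For the mitotic genes the closest were Arhgap11a (0.82), Pabpc1 (0.81), Btg2 (0.80) and Il4ra (0.80), and for the replication genes Tubb5 (0.88), Aldh1a2 (0.88), Clic1 (0.87) and Col3a1 (0.85). These values rest in part on 1 library. Without Con-TAC-MQ 3 they were 0.73, 0.66, 0.69 and 0.62, and 0.71, 0.69, 0.74 and 0.74. The number of genes with an r of at least 0.7 went from 68 to 3 for the mitotic and from 201 to 11 for the replication genes.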
